A study of Mus musculus with 6 samples.

Results

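The proteasome subunit genes were taken as all protein-coding genes whose mouse symbol starts with Psma, Psmb, Psmc, Psmd or Psme followed by a number. Symbols were paired with the Ensembl identifiers of the count tables, and 44 of the 37991 genes listed met this rule. The annotation used holds 45 such symbols. The identifier it gives for Psmb9, one of the 3 immunoproteasome genes, did not match a row of the tables, and Psmb9 was not analysed here. RNA was sequenced from splenic natural killer (NK) cells of C57BL6 mice, sorted as positive for both CD27 and CD11b, surface proteins that are used to stage NK cell maturation. The groups were 3 libraries labelled wildtype and 3 labelled Rroid deficient, Rroid being the name of a noncoding RNA locus in the neighbourhood of Id2. Neither group carried a labelled treatment. The sources used here do not give the animals' ages, whether animals were pooled or how Rroid was removed. Because the labels do not tie each library to its own mouse, the p-values reflect the spread among these libraries alone, and that spread may be technical.

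The proteasome degrades proteins that have been tagged with ubiquitin. Its barrel, the 20S core, has outer rings of alpha subunits (Psma genes) and inner rings of beta subunits (Psmb genes), of which Psmb5, Psmb6 and Psmb7 encode the proteases. The 19S cap binds ubiquitin chains and feeds unfolded substrates into the barrel, with a ring of ATPases (Psmc genes) and a set of non-ATPase subunits (Psmd genes). Psme genes encode other activators that dock on the barrel. In lymphocytes and in cells exposed to interferon, the inducible proteases Psmb8, Psmb9 and Psmb10 take the places of Psmb5, Psmb6 and Psmb7 to form the immunoproteasome, which cuts peptides suited to presentation on MHC class I molecules.

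Reads assigned to genes numbered 5823626 to 9216430 per library, and the proteasome genes took 0.229% to 0.259% of them. Id2, the neighbour of Rroid, was lower in every deficient library. It had 468, 338 and 341 CPM in wildtype libraries 1 to 3 and 38.9, 66.7 and 81.2 CPM in deficient libraries 1 to 3. CPM, the usual read counts scaled to a fixed library size, were computed here on library sizes scaled by TMM (trimmed mean of M-values). Summed over 9 NK cell markers, levels were 6619.6 to 7580.4 CPM in wildtype and 6115.6 to 6570.3 CPM in deficient libraries, and Cd8a, Flt3 and S100a8 had no reads in any library. The sum over 8 T cell markers was 17.2 to 19.2 CPM in wildtype and 91.7 to 147 CPM in deficient libraries. In deficient libraries it lay mainly in Cd3g and Cd3d. Cd6 and Cd8a were at 0 throughout, and Cd3e had 3 reads in wildtype 2 and 0 in the other libraries. Cd4 had 57 reads in wildtype 1 and 0 in the others, and Cd5 had at most 4 reads in any library. Trac overlapped, with 0, 5.05 and 1.73 CPM in wildtype and 0.144, 9.46 and 11.3 CPM in deficient libraries. The sum over 5 myeloid markers was 5.09 to 12.7 CPM in wildtype and 23.7 to 30.4 CPM in deficient libraries, there mainly Cd68. Csf1r went the other way, at a mean of 2.74 CPM in wildtype and 1.79 CPM in deficient libraries. Lyz2 had 12 reads in wildtype 3, 55 in deficient 3 and 0 in the other libraries. S100a9 had 1 read in wildtype 2 and 0 elsewhere. The part of the T cell and myeloid markers in the results below was not tested. Of the tested genes, 5.63% had no read in wildtype 1 and 5.57% had none in deficient 1, against 0.23% to 2.43% in the other 4 libraries.

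The total level of proteasome transcripts was much the same in all 6 libraries. Summed over the 44 genes it was 2503.6, 2460.1 and 2368 CPM in wildtype and 2427, 2453.6 and 2363 CPM in deficient libraries, so the highest library exceeded the lowest by a factor of 1.06. The groups overlapped. Single genes varied far more: the highest library exceeded the lowest by a median factor of 2.36, from 1.29 in Psmb2 to 12.8 in Psma3. In such bulk samples, fewer expressing cells and less RNA per cell cannot be told apart.

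Of the 44 genes, 42 passed the filter on low counts and entered the fit. With edgeR's quasi-likelihood test and a Benjamini-Hochberg threshold of 0.05, none of them was called (adjusted p 0.914 to 0.999). Of all 11724 genes tested, 0.0171% were called, 0.00853% as higher and 0.00853% as lower in deficient libraries. DESeq2 on the same genes and limma-voom called no proteasome gene either. An unadjusted p under 0.05 was found for 1 of the 42, Psmd3, while 5.29% of all tested genes had one. The 42 genes had a median log2 fold change of -0.03, beside 0.02 over all genes tested. Values were positive in 17 and negative in 25 of the proteasome genes, where 51.6% of all genes tested were positive and 48.4% negative.

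All 3 deficient libraries lay above all 3 wildtype libraries in 2 of the 42 proteasome genes, Psme2 and Psme2b, where the share over all genes tested was 6.03%. All deficient libraries lay below in 2 more, Psma3 and Psmd3, where the share was 6.33%. At 4.76% in each direction, the proteasome genes were near this background. Without wildtype 1 and deficient 1, 8 proteasome genes lay above and 9 below, where the shares over all genes tested were 18.3% and 19.4%. The 95% interval of the fold change lay within 2-fold either way in 12 genes and reached beyond it in 30, where a 2-fold difference therefore lay within the interval.

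**Figure D1:**
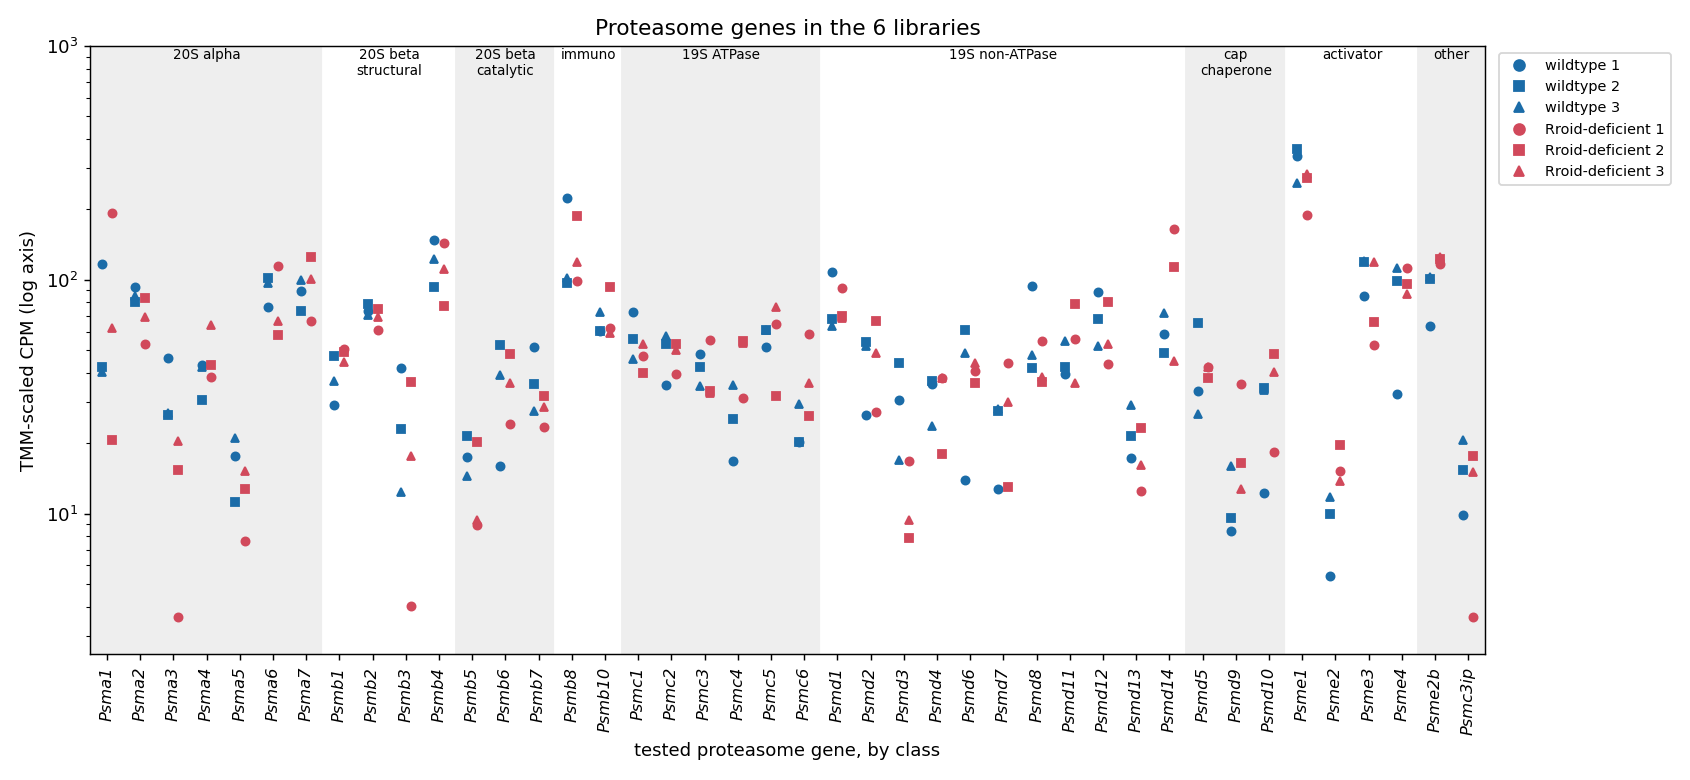
TMM-scaled CPM (log axis) of the 42 tested proteasome genes in each library, ordered by class; blue marks are wildtype and red marks Rroid-deficient libraries. Most genes lie between 10 and 150 CPM with the colours intermixed; Psme1 is highest at 189 to 361 CPM.

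The alpha ring of the core is made of 7 subunits, which gate the entry to the barrel. Their summed level was 484, 365 and 412 CPM in wildtype and 477, 359 and 399 CPM in deficient libraries. The groups overlapped almost fully, with the number 1 library highest in each genotype. Psma3 had 46.3, 26.3 and 27.1 CPM in wildtype and 3.60, 15.3 and 20.5 CPM in deficient libraries. All deficient libraries were lower, and deficient 1 stood far below the others. Its log2 fold change was -1.34 (SE 0.68, edgeR adjusted p = 0.925). Without deficient 1 it was -0.89. Psma1 was the alpha gene with the largest positive value, a log2 fold change of 0.46 (SE 0.70). It had 117, 42.3 and 40.4 CPM in wildtype and 193, 20.6 and 61.95 CPM in deficient libraries, so the number 1 library was highest in each genotype. Without deficient 1 its log2 fold change turned to -0.69.

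The other alpha subunits were steadier. Psma2 had 93.3, 80.3 and 85.4 CPM in wildtype and 53.2, 83.4 and 69.4 CPM in deficient libraries. Psma7 had 89.7, 73.3 and 99.4 CPM in wildtype and 66.4, 125 and 101 CPM in deficient libraries. In both genes the groups overlapped. Psma8, an alpha subunit known from the testis, had 6 reads in wildtype 3, 4 in deficient 3 and 0 in the other libraries, and did not pass the filter.

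Psmb1, Psmb2, Psmb3 and Psmb4 encode the beta subunits of the core without protease activity. Their summed level was 293, 242 and 243 CPM in wildtype and 259, 237 and 242 CPM in deficient libraries. Psmb2 was the steadiest of all tested proteasome genes, with 73.8, 78.5 and 70.8 CPM in wildtype and 60.97, 74.7 and 69.3 CPM in deficient libraries (log2 fold change -0.12, 95% interval -0.77 to 0.52). Psmb4 was the most abundant of the 4, at 148, 93.2 and 123 CPM in wildtype and 143, 77.2 and 111 CPM in deficient libraries. The widest scatter was in Psmb3, with 41.9, 22.98 and 12.4 CPM in wildtype and 4.04, 36.4 and 17.6 CPM in deficient libraries. Its log2 fold change of -0.42 had an SE of 0.78 and turned to 0.11 without wildtype 1 and to 0.058 without deficient 1. Psmb1 had the largest positive value of the 4 (log2 fold change 0.34, SE 0.38).

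The constitutive proteases were compared next with the inducible proteases that replace them. Psmb5, the chymotrypsin-like protease, had 17.4, 21.4 and 14.5 CPM in wildtype and 8.94, 20.2 and 9.40 CPM in deficient libraries. Of the 3 deficient libraries, 2 lay below all wildtype libraries and deficient 2 lay among them. Psmb5 had a log2 fold change of -0.47 (SE 0.64, 95% interval -1.88 to 0.95). Psmb7, the trypsin-like protease, had 51.7, 35.6 and 27.4 CPM in wildtype and 23.5, 31.8 and 28.6 CPM in deficient libraries (log2 fold change -0.45, SE 0.45). Here too the groups overlapped. Psmb6, the caspase-like protease, had 16.03, 52.5 and 39.01 CPM in wildtype and 24.1, 47.96 and 36.2 CPM in deficient libraries. Its log2 fold change was 0.0082 (SE 0.53), and the lowest library of each genotype was number 1.

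Psmb8, the inducible counterpart of Psmb5, had 223, 96.96 and 102 CPM in wildtype and 98.9, 187 and 120 CPM in deficient libraries. One library of each genotype, wildtype 1 and deficient 2, held about the same high level, and the other 4 lay close together. Psmb8 had a log2 fold change of -0.06 (SE 0.37, 95% interval -0.89 to 0.77, edgeR adjusted p = 0.989). It turned to 0.43 without wildtype 1, to 0.12 without deficient 1 and to 0.018 without deficient 3, and without deficient 2 it was -0.37. Psmb10, the counterpart of Psmb7, had 60.7, 60.2 and 72.7 CPM in wildtype and 62.1, 92.7 and 58.9 CPM in deficient libraries. Deficient 2 was the highest library and the other 5 overlapped. Psmb10 had a log2 fold change of 0.14 (SE 0.32, 95% interval -0.58 to 0.86, edgeR adjusted p = 0.965). Without deficient 2 it turned to -0.096. The intervals of both immunoproteasome genes lay within a 2-fold change either way.

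Levels of different genes were compared per kilobase of annotated exon. On this scale Psmb8, at a mean of 40.8 CPM per kb over all libraries, and Psmb10, at 39.8, were nearly equal and ranked 7 and 8 among the 44 genes. The constitutive genes were lower, Psmb5 at 17.02, Psmb6 at 19.2 and Psmb7 at 9.68 CPM per kb. The choice of length moved these levels: per kb of the longest coding transcript, Psmb8 had 84.7, Psmb10 51.8, Psmb5 17.02, Psmb6 45.1 and Psmb7 28.5 CPM, so that Psmb8 and Psmb10 were no longer nearly equal. The share of Psmb8 in the sum of Psmb8 and Psmb5 per kb was 77.4%, 54.7% and 65.2% in wildtype and 74.6%, 71.04% and 77.2% in deficient libraries. In that of Psmb10 and Psmb7, Psmb10 took 70.2%, 77.2% and 84.2% in wildtype and 84.1%, 85.4% and 80.5% in deficient libraries. Each of these shares overlapped between genotypes. With the longest coding transcript as length, the mean share of Psmb10 was 60.3% in wildtype and 68.9% in deficient libraries, and that of Psmb8 was 79.6% and 85.7%.

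With both pairs added, the inducible genes made up 74.7%, 65.2% and 75.1% in wildtype and 79.6%, 77.5% and 78.8% in deficient libraries. The mean was 71.7% ± 5.62 (SD, n = 3) in wildtype and 78.6% ± 1.07 (SD, n = 3) in deficient libraries. Here the groups did not overlap, by a narrow margin between 75.1% and 77.5%. The difference was 6.97 percentage points. The pair of Psmb9 and Psmb6 is missing from this share, because Psmb9 was not analysed. Psmb6 had a log2 fold change of 0.0082, beside -0.47 for Psmb5 and -0.45 for Psmb7. Mean Psmb5 was 17.7 CPM in wildtype and 12.9 CPM in deficient libraries, mean Psmb7 was 38.2 and 27.98 CPM, and the summed CPM of the inducible genes was 205 ± 68.6 (SD, n = 3) in wildtype and 206 ± 63.8 (SD, n = 3) in deficient libraries. No test was made of this share, because it is a score over genes chosen with results of these data known. The T cell and myeloid marker sums given above were also higher in every deficient library, mainly through Cd3g, Cd3d and Cd68. The NK marker sum was lower in every deficient library. The part of these sums in the share was not tested. Exons of Gm20496 overlap those of Psmb8 and exons of Nek6 those of Psmb7 on the opposite strand, and reads there cannot be told apart without strand.

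**Figure D2:**
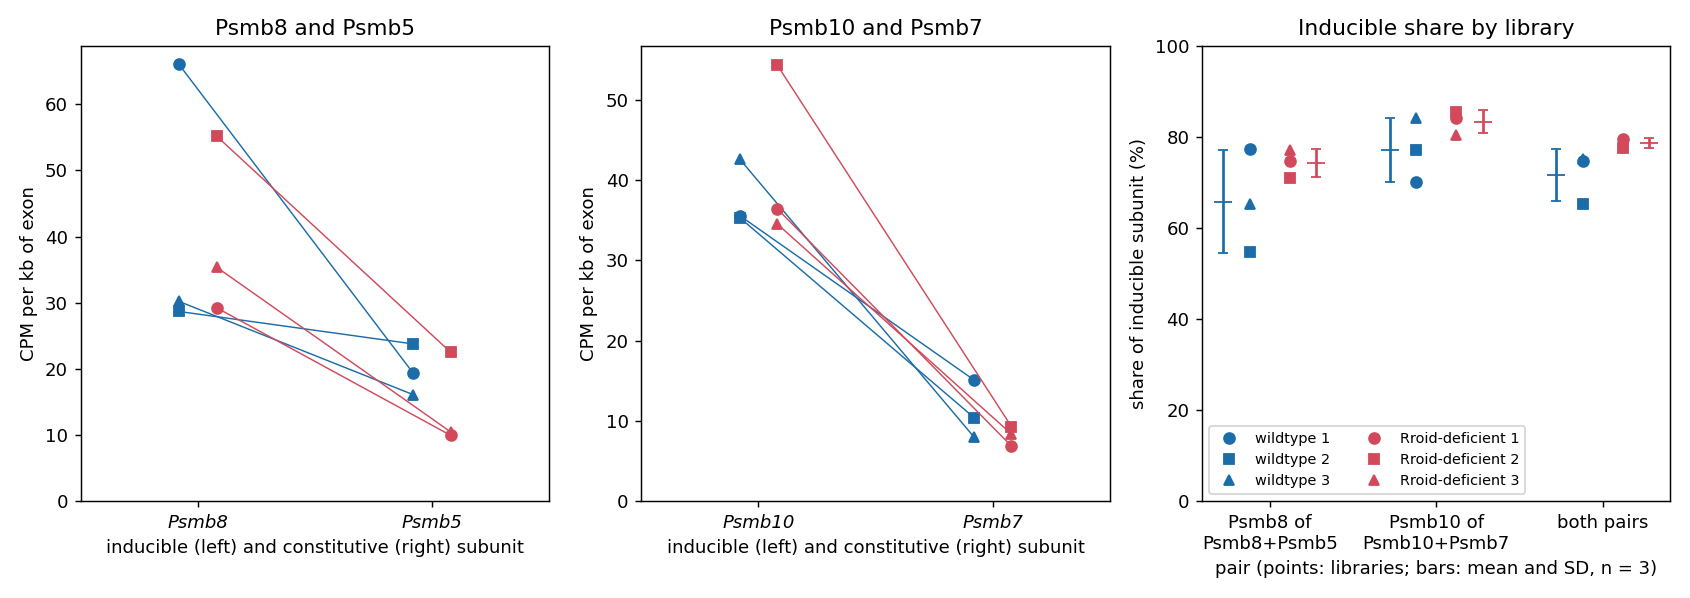
Left and middle, CPM per kb of exon of each inducible protease gene and of the constitutive gene it replaces, with a line for each library; right, the share (%) of the inducible gene, with the mean and SD of 3 libraries. Every library has more of the inducible gene, and only for both pairs together do the genotypes not overlap (65.2% to 75.1% against 77.5% to 79.6%). The pair of Psmb9 and Psmb6 is not included, because Psmb9 was not analysed.

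In both parts of the 19S cap the summed levels of the genotypes overlapped. The 6 ATPase genes summed to 245, 258 and 264 CPM in wildtype and 296, 239 and 302 CPM in deficient libraries. Psmc4 had the largest positive value among them (log2 fold change 0.84, SE 0.47), with 16.8, 25.4 and 35.5 CPM in wildtype and 31.3, 54.5 and 53.5 CPM in deficient libraries. Only deficient 1 lay within the wildtype range. Psmc6 had 20.2, 20.3 and 29.4 CPM in wildtype and 58.5, 26.3 and 36.2 CPM in deficient libraries (log2 fold change 0.79, SE 0.48). Psmc1 had the lowest value (log2 fold change -0.31, SE 0.36), with 72.7, 55.6 and 45.6 CPM in wildtype and 47.1, 39.8 and 53.4 CPM in deficient libraries. None of these 3 genes passed (edgeR adjusted p 0.925, 0.925 and 0.936).

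The 11 non-ATPase genes of the cap summed to 526, 513 and 488 CPM in wildtype and 591, 543 and 428 CPM in deficient libraries. Psmd3, a scaffold subunit of the cap's lid, had the largest negative value of all proteasome genes. It had 30.7, 43.9 and 16.99 CPM in wildtype and 16.7, 7.83 and 9.40 CPM in deficient libraries. All deficient libraries lay below, but deficient 1 and wildtype 3 were nearly equal. Psmd3 had a log2 fold change of -1.43 (SE 0.61, 95% interval -2.78 to -0.08), an unadjusted p of 0.0398 and an edgeR adjusted p of 0.914. Psmd14, the enzyme that removes ubiquitin chains from substrates at the cap, had the largest positive value of the class (log2 fold change 0.85, SE 0.44). It had 58.7, 48.8 and 72.2 CPM in wildtype and 165, 113 and 45.1 CPM in deficient libraries, so 2 deficient libraries were highest and the other was lowest of all. Without deficient 1 its log2 fold change was 0.39.

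Psmd1 and Psmd2, the largest cap subunits and docking sites for ubiquitin carriers, had log2 fold changes of -0.05 (SE 0.33) and 0.09 (SE 0.46). Psmd4, a ubiquitin receptor, had 35.7, 37.05 and 23.8 CPM in wildtype and 38.1, 17.9 and 38.2 CPM in deficient libraries. The log2 fold changes of the class ran from -1.43 to 0.85 around a median of -0.03.

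Psmd5, Psmd9 and Psmd10 encode chaperones that build the ATPase ring and leave the finished cap. They summed to 54.1, 109 and 76.3 CPM in wildtype and 96.4, 103 and 95.4 CPM in deficient libraries. Psmd9 had 8.39, 9.56 and 16.04 CPM in wildtype and 35.9, 16.5 and 12.7 CPM in deficient libraries (log2 fold change 0.94, SE 0.66). Its value rested on deficient 1, without which it was 0.36. Psmd5 had 33.4, 65.2 and 26.6 CPM in wildtype and 42.2, 38.01 and 42.5 CPM in deficient libraries, with a log2 fold change of -0.03 (SE 0.44). Exons of Gm26745 overlap those of Psmd9 on the opposite strand.

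**Figure D3:**
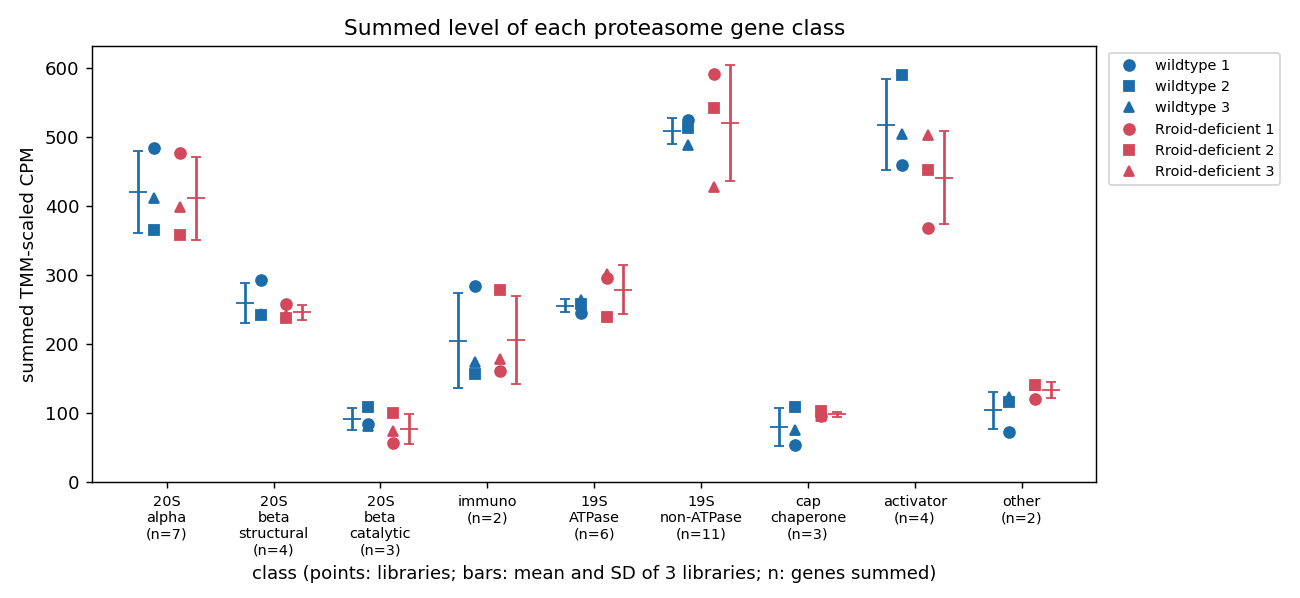
Summed TMM-scaled CPM of each class of proteasome genes, with a point for each library and the mean and SD of the 3 libraries of a genotype. The genotypes overlap in every class; the other symbol matches come closest to separating, at 73.4 to 123 CPM in wildtype and 121 to 141 CPM in deficient libraries.

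None of the activator genes passed the test. Psme1 and Psme2 encode the alpha and beta chains of PA28, a ring induced by interferon that opens the barrel. Psme1 was the most abundant proteasome gene, with 337, 361 and 260.2 CPM in wildtype and 189, 271 and 283 CPM in deficient libraries. The groups overlapped (log2 fold change -0.37, SE 0.23, 95% interval -0.87 to 0.14). Psme2 had only 5.39, 9.99 and 11.8 CPM in wildtype and 15.1, 19.6 and 13.8 CPM in deficient libraries. All deficient libraries were higher, yet the log2 fold change of 0.84 had an SE of 0.67 (edgeR adjusted p = 0.925).

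Psme2b, a copy of Psme2 on chromosome 11 with a single exon, had 63.5, 100.3 and 103 CPM in wildtype and 117, 123 and 126 CPM in deficient libraries. All deficient libraries were higher here as well (log2 fold change 0.45, SE 0.28, edgeR adjusted p = 0.925). With total assigned reads in place of TMM, Psme2b overlapped, deficient 1 having 110.3 CPM and wildtype 3 having 112 CPM, and Psme2 was the only proteasome gene with all deficient libraries above.

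The coding sequences of Psme2 and Psme2b were compared because reads of near-identical copies can be divided between them. Both are 720 bases long and differ at 5 positions, an identity of 99.3%. Of the 621 windows of 100 bases, the read length given in the labels' protocols, 310 were identical in both genes and 92.6% differed at 2 positions or fewer. The annotated Psme2 transcript has 11 exons, 9 of them shorter than 100 bases, on chromosome 14, while the copy has 1 exon. The stretch with most differences, coding bases 444 to 543 of each gene, is shown from GENCODE M21 (build GRCm38), 5′ to 3′ on the sense strand, with the 3 differing bases in capitals.
Psme2: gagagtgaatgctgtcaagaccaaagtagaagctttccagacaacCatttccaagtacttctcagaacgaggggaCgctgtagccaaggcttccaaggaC
Psme2b: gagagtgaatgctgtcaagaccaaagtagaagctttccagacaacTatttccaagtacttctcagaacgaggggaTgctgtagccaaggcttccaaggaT

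Of the reads counted for either gene, Psme2 held 7.83%, 9.06% and 10.3% in wildtype and 11.5%, 13.8% and 9.92% in deficient libraries. How the reads were divided between the copies is therefore uncertain, and the level of neither gene can be read by itself. The sources do not give how reads matching both copies were treated, and a sum covers only the reads counted. Added together, the counts of both genes gave 68.9, 110.3 and 115 CPM in wildtype and 132, 142 and 139 CPM in deficient libraries. Every deficient library was higher on this scale. With total assigned reads in place of TMM the sums overlapped, deficient 1 having 124.5 CPM and wildtype 3 having 125.01 CPM. In a fit with both counts summed, chosen after seeing the data, the pair had a log2 fold change of 0.49 (SE 0.27, 95% interval -0.11 to 1.10, edgeR adjusted p = 0.925).

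Psme3 encodes PA28 gamma, a nuclear activator. It had 85.1, 119 and 120.3 CPM in wildtype and 52.5, 65.9 and 119 CPM in deficient libraries (log2 fold change -0.45, SE 0.35). The lower mean came from deficient 1 and 2, while deficient 3 matched the wildtype libraries. Psme4 encodes PA200, a large single-chain activator. It had 32.5, 99.1 and 112 CPM in wildtype and 112, 96.3 and 86.98 CPM in deficient libraries. Wildtype 1 was the only low library, and without it the log2 fold change turned from 0.28 (SE 0.42) to -0.11.

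Psmc3ip meets the rule by its symbol but encodes a partner of meiotic recombinases and is no proteasome subunit. It had 9.89, 15.4 and 20.6 CPM in wildtype and 3.60, 17.6 and 15.1 CPM in deficient libraries (log2 fold change -0.34, SE 0.76). Its value turned to 0.092 without deficient 1. Psmb11, the protease of the thymic proteasome, had 0 reads in every library, which allows levels of up to 0.322 to 0.489 CPM, covering counting error only.

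**Figure D4:**
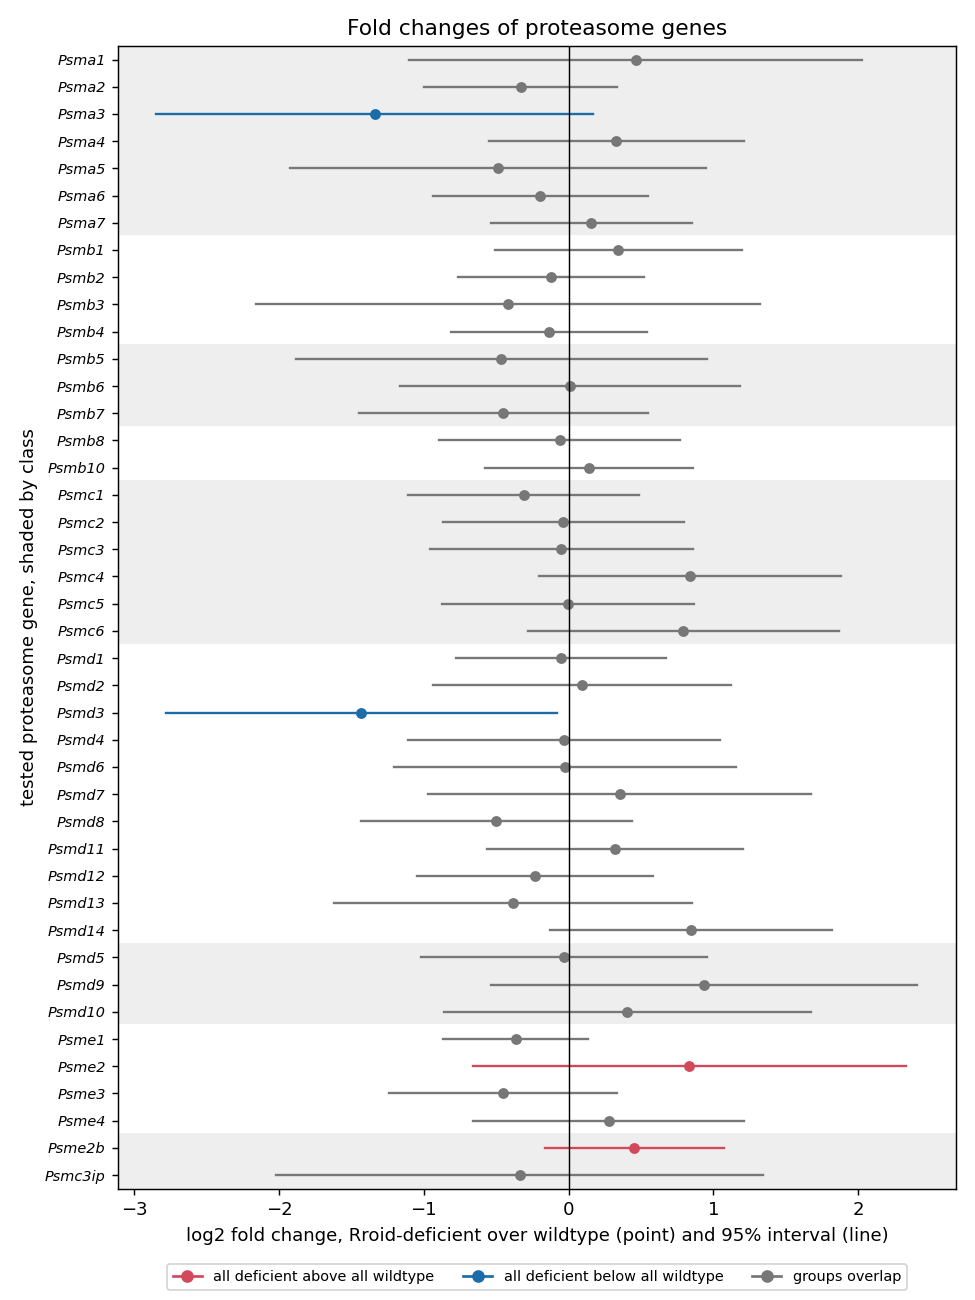
Log2 fold change (deficient over wildtype) of the 42 tested proteasome genes with 95% intervals, shaded by class; red and blue mark genes whose libraries did not overlap between genotypes. Intervals of all genes but Psmd3 (-2.78 to -0.08) include 0.

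The lowest values of the proteasome genes were most frequent in the number 1 library of each genotype. Wildtype 1 and deficient 1 each held the lowest value of 13 of the 42 genes, and the other 4 libraries held it for 2 to 8 genes. Wildtype 1 also held the highest value of 10 genes and deficient 1 that of 8. These counts were not made over all genes tested, so they are not particular to the proteasome genes. On the log2(CPM + 1) scale, the median distance of a proteasome gene from its mean over the 6 libraries was 0.49 in wildtype 1, 0.44 in deficient 1 and 0.43 in deficient 2. It was 0.28 in wildtype 2, 0.20 in wildtype 3 and 0.20 in deficient 3. Over all genes tested the same distance was 0.62, 0.60 and 0.46, and 0.32, 0.30 and 0.30. Over 2522 tested genes within the interquartile range of the proteasome genes' mean CPM it was 0.50, 0.50 and 0.37, and 0.26, 0.24 and 0.25. All 42 proteasome genes were used, also those outside that range, so abundance was not fully matched. In 4 of the 6 libraries the proteasome genes lay closer to their mean than these genes, in wildtype 1 only slightly. In wildtype 2 and deficient 2 they lay farther. The median biological coefficient of variation in the fit was 0.395 for the proteasome genes and 0.414 for these genes.

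Genes that build, supply or regulate the proteasome were compared with the same fit. Of 40 such genes tested, none passed over all genes tested (edgeR adjusted p 0.895 to 0.999). An unadjusted edgeR p under 0.05 was found for 5 of the 40, while 5.29% of all genes tested had one. DESeq2 and limma-voom called none of the 40. Log2 fold changes were positive in 28 and negative in 12, with a median of 0.28 beside 0.02 over all genes tested. All deficient libraries lay above all wildtype libraries in 9 of the 40, or 22.5%, where the share over all genes tested was 6.03%. In none did all lie below. With total assigned reads in place of TMM, 6 of 40 lay above, or 15%, and 1 below, where 5.04% of all tested genes lay above. Ecpas, Nlrc5 and Tap1 were the 3 that then overlapped. Without wildtype 1 and deficient 1, 15 of 40 lay above, or 37.5%, and 7 below, where 18.3% and 19.4% of all tested genes lay above and below. The list was written with earlier results of these data known, and no test was made of it as a set.

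Several of the 9 genes handle ubiquitin or carry ubiquitinated proteins to the cap. Rad23b, a shuttle that binds both ubiquitin chains and the proteasome, had 46.9, 60.8 and 60.1 CPM in wildtype and 144, 98.9 and 90.3 CPM in deficient libraries. Its log2 fold change of 0.99 (SE 0.31) had the smallest unadjusted p of the list, 0.00924 (edgeR adjusted p = 0.895). Zfand5, a ubiquitin-binding activator of the proteasome, had 93.8, 88.6 and 75.3 CPM in wildtype and 176, 117 and 108 CPM in deficient libraries (log2 fold change 0.64, SE 0.28).

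Others take part in assembly, import or induction. Psmg2, an assembly chaperone of the alpha ring, had 9.74, 7.30 and 9.28 CPM in wildtype and 25.1, 36.5 and 15.3 CPM in deficient libraries (log2 fold change 1.55, SE 0.61). Its partner Psmg1 had a log2 fold change of 1.03 (95% interval -1.23 to 3.28), with deficient 1 at 36.6 CPM against 2.40 to 10.5 CPM in the other 5 libraries. The other assembly chaperones of this family had negative values, Psmg4 a log2 fold change of -0.97 (95% interval -3.30 to 1.37) and Psmg3 one of -0.05 (95% interval -2.59 to 2.49). Ecpas, a proteasome-binding adaptor, had 94.8, 90.2 and 140.3 CPM in wildtype and 164, 176 and 143 CPM in deficient libraries (log2 fold change 0.57, SE 0.26). Akirin2, which mediates import of proteasomes into the nucleus, had 44.04, 45.1 and 42.2 CPM in wildtype and 77.4, 56.9 and 49.5 CPM in deficient libraries (log2 fold change 0.49, SE 0.35).

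The transcription factor encoded by Nfe2l1 restores proteasome gene expression when degradation fails, after being cut by the protease encoded by Ddi2. Ddi2 had 23.5, 52.8 and 39.01 CPM in wildtype and 90.5, 64.6 and 61.5 CPM in deficient libraries (log2 fold change 0.91, SE 0.40). Nfe2l1 itself had a log2 fold change of 0.16 (SE 0.42). Nlrc5, the transactivator of MHC class I genes, had 99.8, 98.9 and 117 CPM in wildtype and 327, 131 and 125 CPM in deficient libraries, with deficient 1 far above the rest. Its log2 fold change of 0.88 (SE 0.37) was 0.28 without deficient 1. Tap1, a peptide transporter gene next to Psmb9, had 67.9, 69.3 and 88.4 CPM in wildtype and 115, 134 and 89.2 CPM in deficient libraries (log2 fold change 0.59, SE 0.28). The interferon factor Irf1 had a log2 fold change of -0.01 (SE 0.36).

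**Figure D5:**
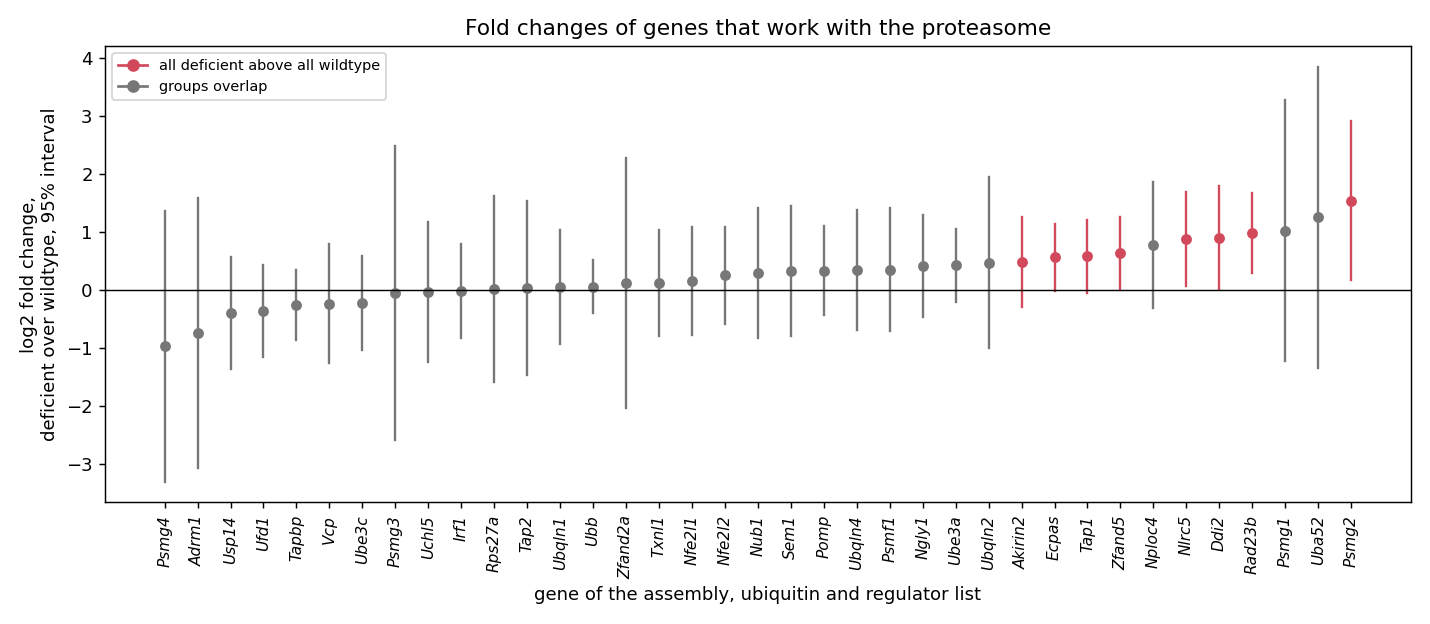
Log2 fold change (deficient over wildtype) with 95% intervals of 37 of the 40 tested genes that assemble, supply or regulate the proteasome, ordered by value. The 8 genes in red had all deficient libraries above all wildtype libraries; 27 of the 37 values plotted are above 0.

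The promoters of the proteasome genes were searched for the elements to which such regulators bind. RefSeq promoters (build GRCm38.p6) were matched for 37 of the 44 genes, and the 250 bases before each start were searched on both strands. The antioxidant response element, TGACNNNGC, which the Nfe2l1 product can bind, was found in 12.5% of the 40 promoter windows of these genes and in 10.2% of all 32851 windows. The 5 genes with a match were Psmb5, Psmb6, Psmc6, Psmd9 and Psmd12, and their log2 fold changes ran in both directions (-0.47, 0.0082, 0.79, 0.94 and -0.23). The ETS core, CCGGAAG, was found in 32.5% of the windows of proteasome genes and in 6.91% of all windows. The CCAAT box was found in 35.0% and 33.8%. Counted by gene, an interferon-type element (GAAA, any 2 bases, GAAA) was found in 3 of the 37 genes, Psmb3, Psmd4 and Psmd9, or 8.11%, and in 3.46% of all genes with a promoter. A heat shock element (GAA, any 2 bases, TTC, any 2 bases, GAA) was found in 0 of the 37 genes and in 0.514% of all genes. These matches describe letters only.

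The promoters of Psmb5 and Psmb6 are shown because their match lies close to the start in the genes of constitutive proteases, with the element in capitals. That of Psmb5 is chr14:54617996-54618245 on the minus strand, and that of Psmb6 is chr11:70525107-70525356 on the plus strand, each ending at the base before the start.
Psmb5: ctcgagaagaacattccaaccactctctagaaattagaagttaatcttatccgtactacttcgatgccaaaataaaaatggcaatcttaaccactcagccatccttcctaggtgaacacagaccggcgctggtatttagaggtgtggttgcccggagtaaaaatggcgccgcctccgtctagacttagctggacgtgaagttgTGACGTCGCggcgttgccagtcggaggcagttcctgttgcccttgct
Psmb6: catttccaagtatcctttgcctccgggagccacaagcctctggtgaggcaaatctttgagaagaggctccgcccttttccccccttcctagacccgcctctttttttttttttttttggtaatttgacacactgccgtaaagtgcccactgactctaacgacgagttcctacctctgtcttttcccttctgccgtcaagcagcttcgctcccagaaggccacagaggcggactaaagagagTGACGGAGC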

How the data were processed

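DESeq2, HTSeq 0.6.1, TopHat2 2.1.0 and Trimmomatic 0.33 are listed, per the submitters' processing notes, beside the builds mm9 and NCBIM37. The sources used here give neither order and settings nor any use of strand. The authors deposited raw counts of reads per gene, 1 file per library. Closing rows that name no gene held 80.0% to 84.4% of the reads listed and were left out. Libraries were grouped by title.

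Symbols, gene types and exon lengths came from GENCODE M21 (GRCm38), which named 32938 of the genes. Coordinates from that build are printed only with promoter sequences. The test was edgeR 4.0.16 in R 4.3.3, with TMM, filterByExpr and a quasi-likelihood fit on genotype, adjusted over 11724 genes by Benjamini-Hochberg. Each SE is the log2 fold change divided by the root of F. Levels per kb used the union of annotated exons as length. The fit was tested on simulated data. The members and lists were chosen with earlier results of these data known. Genes named in full were the inducible proteases, their counterparts, the activators, genes whose libraries did not overlap and, per class, the extremes of fold change; other members were picked as examples after their values were seen, as were Psmg1, Nfe2l1 and Irf1. Values of a few listed genes are not reported here. Alternatives were RLE factors, total reads, DESeq2 1.42.0, limma-voom (limma 3.58.1), other filters, other lengths, a threshold of 0.1, a replicate block and each library left out. The groups hold 3 libraries each, and no 2 libraries agreed within sampling noise. Figures used matplotlib 3.10.9.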

Additional observations from a re-analysis of the deposited data

How the results depend on the processing

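No proteasome gene and no gene of the regulator list was called under any of the 14 alternatives run, including DESeq2, limma-voom, a threshold of 0.1 and no filter. The count over all genes, 2 in the test reported, was 65 with DESeq2, 1 with limma-voom, 98 without a filter, 0 with the replicate number as a block, 0 without both number 1 libraries and 0 to 0 without each library in turn. Deviations of same-numbered libraries from their group means correlated at 0.0002549, -0.01652 and 0.02002. The block called no proteasome gene, but neither did any other setting. Wildtype 1 and deficient 1 were alike in the share of tested genes without a read, at 5.63% and 5.57%. Whether same-numbered libraries shared a preparation cannot be told from these values, and the labels do not give it.

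Directions of several small fold changes were not stable. Psmb8 was 0.016 with limma-voom, 0.0093 with the replicate block, 0.61 without both number 1 libraries and -0.37 to 0.43 without each library. Psmb6 was -0.0048 without a filter, -0.13 without both and -0.36 to 0.39 without each. Psmd5 was 0.0029 with limma-voom, 0.082 with the block and -0.28 to 0.45 without each. Without both number 1 libraries, Psme4 was -0.21, Psma1 -0.0054 and Psmb3 0.60. Without each library, Psmb10 ran from -0.10 to 0.26, Psme4 from -0.11 to 0.57, Psma1 from -0.69 to 1.14, Psmb3 from -1.26 to 0.11 and Psmc3ip from -0.71 to 0.092. The median of the structural beta genes was 0.043 without both and -0.19 to 0.065 without each, and that of all proteasome genes was -0.11 and -0.098 to 0.033. The cause was not tested. Psmb5 and Psmb7 kept their direction in all alternatives run, Psmb5 at -0.96 to -0.27 and Psmb7 at -0.65 to -0.067. So did Psmd3, Psma3, Psme2 and Psme2b, but their groups did not overlap, so leaving out libraries could hardly turn their direction. The share of inducible proteases over both pairs was higher in deficient libraries by 3.73 to 8.70 percentage points in all 9. Its groups did not overlap either, so leaving out libraries could not turn this direction. The other lengths only reweight the same counts. Each single pair had a higher mean share in deficient libraries at every length, so these were a weak check. They gave 6.37 (longest coding transcript) and 5.16 (no length scaling) percentage points. Expression below the level of 3 reads could not be seen.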
